A study of Homo sapiens with 18 samples.

Results

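Collagen chain genes were taken as every gene whose symbol is COL, a number, A and a number, the form used for the alpha chains of the collagens. The deposited count table held 44 such genes among 78724, and 24 of the 44 had enough counts to be tested. They were measured by RNA-seq in THESC, an established cell line made from stromal (connective-tissue) cells of the human endometrium and immortalised with telomerase. The study used CRISPR guide RNAs to switch on the progesterone receptor gene PGR, with its isoforms at different ratios. Promoter cells carried a guide named Promoter (genotype label PGRB-dominant), U1U2 cells carried guides named U1U2 (PGRA/B-equivalent), and NT cells carried an NT guide (WT). Each line received 1 µM medroxyprogesterone acetate (MPA), a synthetic progestin, or vehicle (0.01% ethanol) for 72 hours, which gives Promoter MPA, Promoter vehicle, U1U2 MPA, U1U2 vehicle, NT MPA and NT vehicle. All 18 libraries, 3 per group, came from cells moved to low serum a day before treatment, with charcoal-stripped serum during it. The labels do not say whether a line is a clone or a pool. All groups thus come from one immortalised line, NT cells have PGR of their own, and no group lacked a receptor or had it blocked.

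Collagens are extracellular proteins whose alpha chains wind into triple helices, either from copies of a single chain or from different chains in a fixed proportion. Fibrillar collagens form the banded fibrils of connective tissue, and the minor chains of types V and XI start such fibrils and limit their width. Type IV chains form the sheet-like network of basement membranes, and FACIT collagens (fibril-associated collagens with interrupted triple helices) sit on the surface of fibrils. Endometrial stromal cells lay down an interstitial matrix, and as they become decidual cells under progesterone they surround themselves with a basement-membrane-like matrix.

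The libraries held 11.9 to 33.4 M counts each, with a median of 22.9 M. The targeted gene, PGR, was higher in Promoter and U1U2 than in NT cells. It was at 226 to 303 CPM (counts per 1 M counts, scaled with TMM factors) in Promoter and U1U2 MPA libraries, against 76.2 to 95.1 CPM in NT MPA. Vehicle libraries had 395 to 674 CPM in Promoter and U1U2 cells, against 120.0 to 153 CPM in NT vehicle. These are counts per gene, so the isoform ratios named in the labels were not checked. Stromal identity was checked on 10 marker genes. VIM stood at 1162 to 1926 CPM, NT5E at 502 to 807 CPM and HAND2 at 11.9 to 56.9 CPM. DES was the lowest of them, at 1 to 39 counts per library. Of the genes that define other cells, PECAM1 (endothelium) had 0 to 4 counts per library, CD3E (T cells) 0, CD68 (macrophages) 0 to 4, CDH1 (epithelium) 0 to 6, ACAN 0 to 2 and COMP 0 to 1 (cartilage). Other genes of the same lists were higher, among them KRT19 at 142 to 1134 counts, KRT18 at 105 to 460, MUC1 at 48 to 166, KRT8 at 35 to 152, PTPRC at 33 to 143, SOX9 at 7 to 74, EPCAM at 3 to 34 and TIE1 at 1 to 31. Some of these lists moved with MPA. The 6 leukocyte markers summed to 2.34 to 2.82 CPM in Promoter MPA and 4.48 to 4.83 CPM in Promoter vehicle, 2.02 to 2.28 CPM in U1U2 MPA and 3.75 to 4.33 CPM in U1U2 vehicle, and 2.09 to 2.62 CPM in NT MPA and 4.60 to 5.86 CPM in NT vehicle, lower with MPA without overlap in each line. The 7 epithelial markers summed to 27.6 to 36.0 CPM in Promoter MPA and 38.2 to 53.4 CPM in Promoter vehicle, and overlapped between MPA and vehicle in U1U2 and NT cells (20.9 to 45.7 CPM over their libraries). The 6 endothelial markers summed to at most 1.38 CPM in any library, lower with MPA in Promoter and NT cells without overlap. The 5 cartilage markers summed to at most 2.14 CPM, lower with MPA without overlap in NT cells only. The part of these markers in the MPA comparisons below was not tested.

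The labels give a single batch for every library, so no value could be repeated within batches. Separate cultures are not mentioned for the replicates, and p-values then reflect only how much the sequenced samples vary, possibly for technical reasons. In bulk RNA, fewer cells of a type and less RNA per cell cannot be told apart.

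The collagen output of these cells was dominated by a few chains of connective-tissue fibrils. Collagen genes took 2.39%, 2.14% and 2.19% of the counts in Promoter MPA libraries, against 1.69%, 1.83% and 1.55% in Promoter vehicle. U1U2 MPA libraries had 2.23%, 2.17% and 2.32%, against 1.73%, 1.79% and 1.72% in U1U2 vehicle. NT MPA libraries had 1.91%, 2.01% and 2.15%, against 2.03%, 1.68% and 1.58% in NT vehicle. All MPA libraries lay above the vehicle libraries in Promoter and U1U2 cells, while in NT cells the first vehicle library lay above 2 of the MPA libraries. Fibrillar chains made up most of it, with a mean of 1.45% ± 0.09 of all counts in Promoter MPA and 1.04% ± 0.12 in Promoter vehicle (SD, n = 3 each). Their mean was 1.45% ± 0.04 in U1U2 MPA and 1.05% ± 0.01 in U1U2 vehicle. NT MPA and NT vehicle libraries overlapped, at 1.36% ± 0.10 and 1.14% ± 0.17. The basement membrane chains averaged 0.273% ± 0.028 in Promoter MPA and 0.219% ± 0.009 in Promoter vehicle. They averaged 0.272% ± 0.032 in U1U2 MPA and 0.200% ± 0.003 in U1U2 vehicle. In NT cells MPA and vehicle libraries overlapped, at 0.235% ± 0.012 and 0.201% ± 0.028. Beaded-filament chains (type VI) differed by less than the spread between libraries in Promoter cells, at 0.252% ± 0.021 with MPA and 0.242% ± 0.025 with vehicle. Their mean was lower with MPA in the other lines, where MPA and vehicle libraries also overlapped. It was 0.237% ± 0.023 in U1U2 MPA and 0.267% ± 0.024 in U1U2 vehicle, and 0.201% ± 0.020 in NT MPA and 0.231% ± 0.042 in NT vehicle. These shares are descriptions of each library and carry no test.

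**Figure D1:**
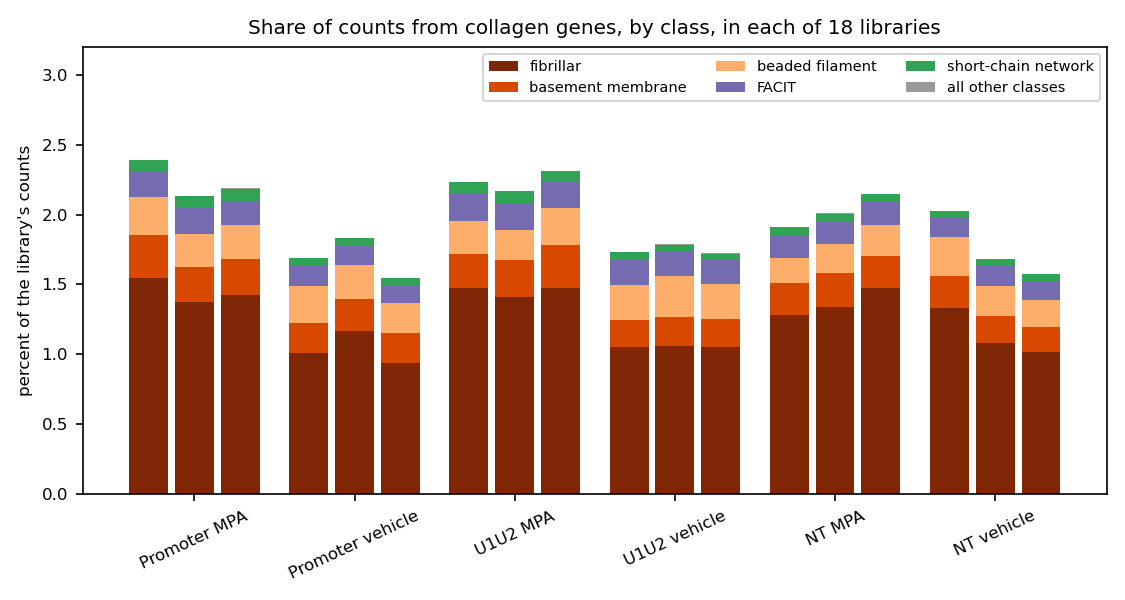
Percent of each library's counts that fell in collagen genes, stacked by class, with 1 bar per library and 3 libraries per group. The Promoter and U1U2 MPA bars, at 2.14% to 2.39%, stand above their vehicle bars, at 1.55% to 1.83%, and NT MPA and NT vehicle bars overlap.

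Per kilobase of annotated exon, the level averaged over all libraries was highest for COL3A1, the single chain of type III collagen, at 566 CPM per kb. It was followed by COL1A2 at 328 and COL1A1 at 280.5 CPM per kb, the chains of type I collagen, the main fibril of connective tissue. Then came COL5A2 at 205, COL4A1 at 119, COL12A1 at 115 and COL6A3 at 105 CPM per kb. Several neighbours in this order changed places between groups. COL4A1 averaged 98.5 ± 3.92 CPM per kb in U1U2 vehicle, where COL12A1 averaged 121 ± 5.36 (SD, n = 3 each). In NT vehicle COL4A1 averaged 102 ± 11.2 and COL12A1 86.0 ± 2.99. COL6A3 averaged 106 ± 17.2 in Promoter vehicle, where COL12A1 averaged 93.9 ± 13.5. In Promoter MPA, COL1A1 averaged 374 ± 37.0 and COL1A2 368 ± 16.1. A gap followed COL11A1, at 11.0 CPM per kb, with COL5A3 next at 2.00. The 10 most abundant collagen genes held 95.6% to 97.4% of collagen counts in every library. Among the 20 genes left untested no library had more than 15 counts, and COL9A1, COL22A1 and COL23A1 had 0 counts in all 18 libraries. A single library at 0 allows an expected count of up to 3, and 0 in all libraries allows less if the level was the same throughout. The untested genes include the cartilage chains COL2A1, COL9A1, COL9A2, COL9A3 and COL11A2, the hypertrophic-cartilage chain COL10A1, and COL17A1 of epithelial hemidesmosomes. The others are COL4A3, COL4A6, COL6A5, COL6A6, COL15A1, COL19A1, COL20A1, COL21A1, COL22A1, COL23A1, COL25A1, COL26A1 and COL28A1.

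**Figure D2:**
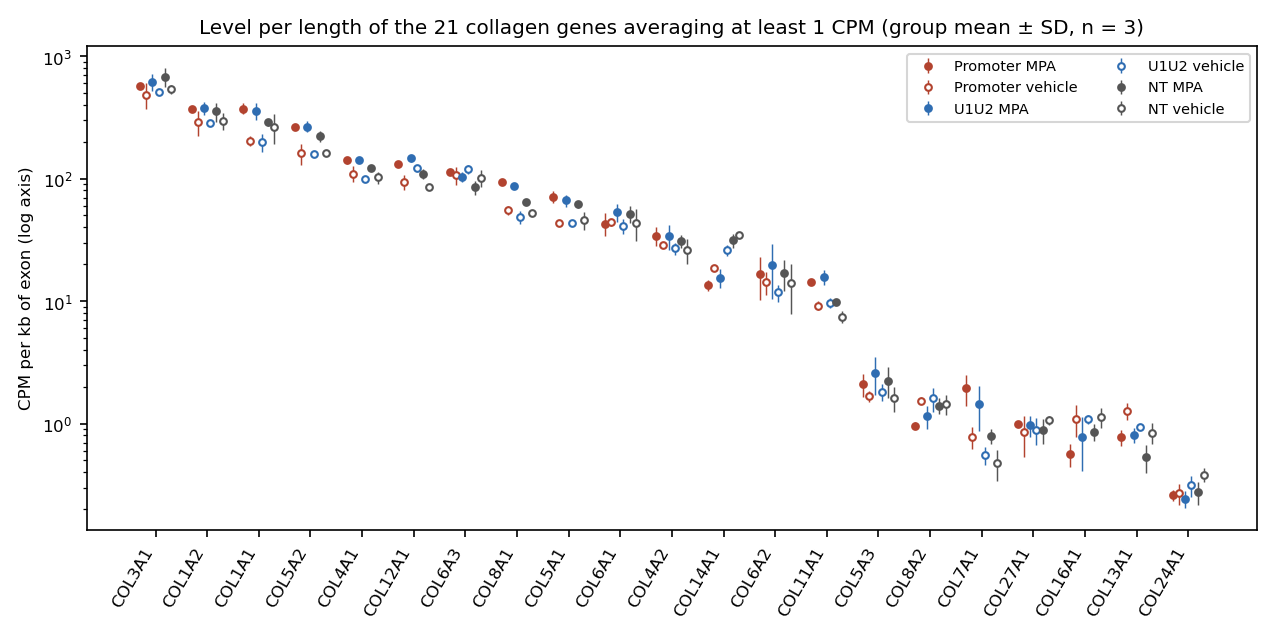
Group mean ± SD (n = 3) of the level per kilobase of exon, on a log axis, for the 21 collagen genes averaging at least 1 CPM, ordered by level. COL3A1 leads at 566 CPM per kb over all libraries, and a step down separates COL11A1 at 11.0 from COL5A3 at 2.00 CPM per kb.

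With MPA, 4 fibrillar chains (COL1A1, COL5A1, COL5A2 and COL11A1), COL4A1, COL7A1 and COL8A1 rose in both lines with activated PGR, and COL14A1 fell in both. COL12A1 rose and COL16A1, COL8A2 and COL13A1 fell in Promoter cells, and COL18A1 rose in U1U2 cells. In Promoter cells 12 of 24 tested members passed the test, 8 higher and 4 lower, where 15% of all 15558 tested genes passed (6.63% higher and 8.4% lower). In U1U2 cells 9 passed, 8 higher and 1 lower, against 11.7% of all genes (5.44% higher and 6.22% lower). In NT cells 3 passed, all higher, against 5.93% of all genes (2.44% higher and 3.48% lower). The median log2 fold change of the tested members was 0.29 in Promoter, 0.46 in U1U2 and 0.25 in NT cells, beside -0.0034, 0.03 and 0.02 over all tested genes. Promoter and U1U2 cells shared 8 called members, of 12 and of 9, all 8 in the same direction (7 higher and COL14A1 lower). The 3 members called in NT cells, COL5A1, COL5A2 and COL11A1, were called higher in all 3 lines. How far calls overlap between lines over all tested genes was not counted, so these overlaps have no background to be set against. A call means an adjusted p under 0.05 by edgeR's quasi-likelihood test with Benjamini-Hochberg adjustment over all tested genes, and the tested members are those with enough counts, not all 44. Passing, called, rose and fell refer to this test unless another setting is named. The NT count was the least stable: it lay between 0 and 2 when any single library of NT cells was left out (0 without NT MPA 3), and was 6 with DESeq2.

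**Figure D3:**
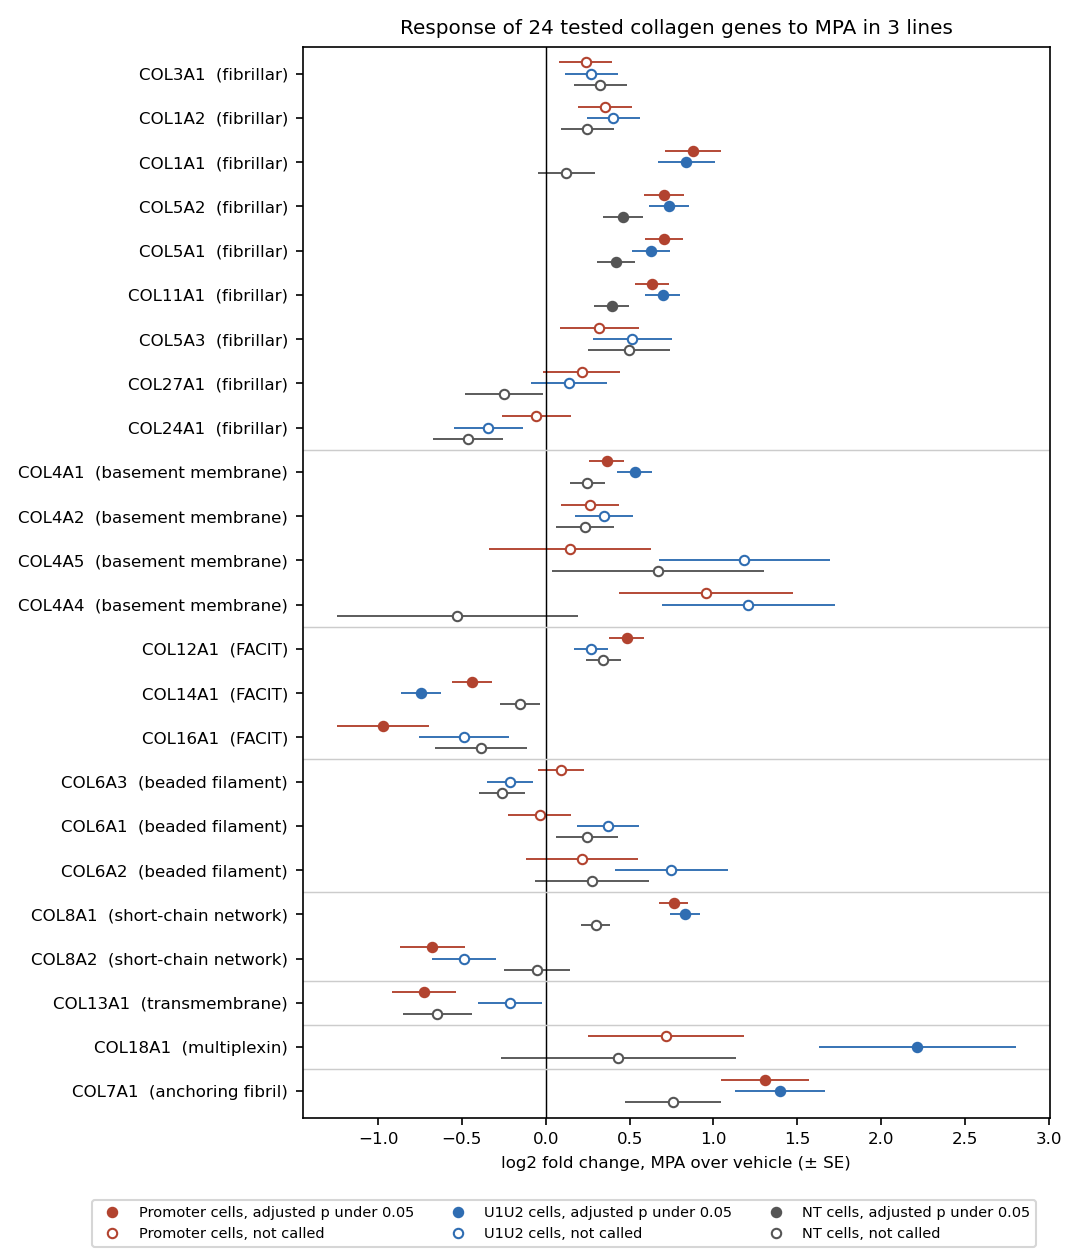
Log2 fold change of MPA over vehicle, ± SE, for the 24 tested collagen genes in Promoter, U1U2 and NT cells, grouped by class. Filled points passed the test: 12 in Promoter, 9 in U1U2 and 3 in NT cells, with COL5A1, COL5A2 and COL11A1 filled in all 3 lines.

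Among fibrillar chains, 9 of 11 were tested and 4 rose with MPA in Promoter cells, 4 in U1U2 cells and 3 in NT cells (44.4%, 44.4% and 33.3%). Over all tested genes, 6.63%, 5.44% and 2.44% were called higher in these lines. COL5A2, a chain of type V collagen, lies on chr2:189031896-189225312 (GENCODE 29, GRCh38, as for all positions of genes here). It had 1998, 1887 and 1982 CPM in Promoter MPA libraries, against 1167, 1447 and 985 CPM in Promoter vehicle. U1U2 MPA libraries had 2216, 1849.9 and 1884 CPM, against 1137, 1202 and 1237 CPM in U1U2 vehicle. NT MPA libraries had 1571, 1526 and 1863 CPM, against 1243, 1178 and 1190.1 CPM in NT vehicle. Every MPA library exceeded every vehicle library of its line, and the NT MPA libraries lay in part below those of the other lines. The log2 fold changes were 0.71 ± 0.12 in Promoter cells (adjusted p = 0.000357), 0.73 ± 0.12 in U1U2 cells (0.000299) and 0.46 ± 0.12 in NT cells (0.0264).

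COL5A1, the partner chain of COL5A2 in type V trimers, is encoded on chr9:134641774-134844843. It was at 899, 753 and 744 CPM in Promoter MPA and at 487, 509.6 and 471 CPM in Promoter vehicle. U1U2 cells gave 687, 707 and 841 CPM with MPA and 489.8, 489 and 466 CPM with vehicle. NT cells gave 636, 720.1 and 708 CPM with MPA and 609, 494 and 442 CPM with vehicle. No MPA library overlapped the vehicle libraries of its line, although NT vehicle 1 stood close to the lowest NT MPA library. The log2 fold changes of COL5A1 were 0.71 ± 0.11 (adjusted p = 0.000198) in Promoter, 0.63 ± 0.11 (0.000797) in U1U2 and 0.42 ± 0.11 (0.0332) in NT cells.

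COL11A1, a type XI chain closely related to COL5A1 and best known from cartilage fibrils, lies on chr1:102876467-103108872. Its level was 128, 129 and 132 CPM in Promoter MPA, against 78.2, 80.8 and 91.9 CPM in Promoter vehicle. In U1U2 MPA it was 121, 161 and 144 CPM, against 95.3, 78.5 and 89.0 CPM in U1U2 vehicle. NT MPA libraries had 91.7, 89.1 and 87.0 CPM, against 60.2, 74.4 and 69.1 CPM in NT vehicle. All NT MPA libraries of COL11A1 lay within the span of the vehicle libraries of the other lines, and above those of NT vehicle. COL11A1 changed by 0.63 ± 0.10 on the log2 scale in Promoter cells (adjusted p = 0.000262), 0.70 ± 0.10 in U1U2 cells (0.000126) and 0.39 ± 0.11 in NT cells (0.0319). Its partners in type XI trimers were scarce, with at most 15 counts of COL11A2 and 1 of COL2A1 in any library.

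The calls of COL5A1, COL5A2 and COL11A1 in NT cells were not stable to leaving out single libraries. COL11A1 lost its call without NT vehicle 1 or 3 or any 1 NT MPA library (0.32 to 0.41), COL5A1 without NT vehicle 2 or 3 or NT MPA 2 or 3 (0.31 to 0.40), and COL5A2 without NT vehicle 2 or 3 or NT MPA 1 or 3 (0.36 to 0.48). In Promoter and U1U2 cells the calls of these 3 chains held under every alternative run.

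Promoter windows are shown for COL5A1 and COL11A1, which moved together in all lines and have windows in the RefSeq table (GRCh38.p14, 250 bases before to 50 after the start, 5′ to 3′ on the strand of the gene). Capitals mark matches, on either strand, to AGAACA (the half-site of steroid receptors of the progesterone and glucocorticoid type), CCAAT or TATAAA. COL5A1 lies at chr9:134641553-134641852 on the plus strand, and COL11A1 at chr1:103108473-103108772 on the minus strand.
COL5A1: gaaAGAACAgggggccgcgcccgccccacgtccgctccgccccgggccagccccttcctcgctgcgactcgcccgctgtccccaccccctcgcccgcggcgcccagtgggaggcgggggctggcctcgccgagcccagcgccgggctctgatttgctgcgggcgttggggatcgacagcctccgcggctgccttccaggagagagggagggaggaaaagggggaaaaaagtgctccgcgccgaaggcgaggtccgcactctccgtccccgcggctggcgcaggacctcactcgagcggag
COL11A1: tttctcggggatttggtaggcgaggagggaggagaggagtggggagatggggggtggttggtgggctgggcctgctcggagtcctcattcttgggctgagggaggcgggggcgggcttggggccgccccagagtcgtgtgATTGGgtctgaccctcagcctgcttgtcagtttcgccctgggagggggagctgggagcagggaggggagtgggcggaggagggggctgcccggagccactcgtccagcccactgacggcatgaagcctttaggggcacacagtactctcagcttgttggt
COL5A1 held an AGAACA match and no CCAAT or TATAAA, and COL11A1 held a CCAAT match on the other strand. Windows were found for 32 of the 44 members, with 44 windows in all. AGAACA, searched on both strands, was in 5 of them (11.4%), against 14.8% of all 35116 windows in the table. CCAAT was in 31.8% of member windows and 34.6% of all, TATAAA in 18.2% and 11.5%, and GGGCGG, the SP1 box, in 54.5% and 45%. These are matches of letters in short windows and say nothing of binding there or elsewhere.

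COL1A1, the major chain of type I collagen, is on chr17:50183289-50201632. Its level was 4085, 3420.2 and 3498 CPM in Promoter MPA, against 1796, 2117 and 2076 CPM in Promoter vehicle. In U1U2 MPA it stood at 2847, 3770.5 and 3857 CPM, against 2327, 1734 and 1796 CPM in U1U2 vehicle. The NT MPA values were 2754, 3051 and 2662 CPM, against 3367, 2421 and 1989 CPM in NT vehicle. The groups separated in Promoter and U1U2 cells and overlapped in NT cells, where NT vehicle 1 was above every NT MPA library. COL1A1 rose by 0.88 ± 0.17 (adjusted p = 0.00125) in Promoter and 0.84 ± 0.17 (0.00236) in U1U2 cells, with 0.12 ± 0.17 (0.765) in NT cells.

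COL1A2, the second chain of type I collagen (chr7:94394561-94431232), did not pass in any line, but did without the low-count filter in Promoter (0.34) and U1U2 cells (0.39). It had 4275, 3918 and 4130.2 CPM in Promoter MPA, against 3170.4, 3982 and 2500.2 CPM in Promoter vehicle. The log2 fold changes were 0.35 ± 0.16 (adjusted p = 0.161) in Promoter, 0.40 ± 0.16 (0.122) in U1U2 and 0.25 ± 0.16 (0.474) in NT cells. Type I trimers normally take more COL1A1 than COL1A2 chains, so the ratio of the transcripts per length was formed. It was 1.09, 0.992 and 0.962 in Promoter MPA, against 0.644, 0.604 and 0.943 in Promoter vehicle. U1U2 MPA gave 0.671, 1.12 and 1.11, against 0.863, 0.608 and 0.632 in U1U2 vehicle. NT MPA gave 0.893, 0.973 and 0.634, against 0.976, 0.897 and 0.757 in NT vehicle. The MPA and vehicle ratios overlapped in U1U2 and NT cells, and in Promoter cells vehicle library 3 came close to the lowest MPA library. Libraries of a group differed along the GC content of genes. Over the 21 members averaging at least 1 CPM, Pearson's r across genes between GC content and a library's deviation from its group mean ran from -0.80 in Promoter MPA 3 to 0.81 in U1U2 MPA 3, and its part in this ratio was not tested. COL1A1 is the GC-rich partner, at 61.1% GC in its longest annotated transcript, against 41.7% in that of COL1A2. With GC and length offsets in the fit, COL1A1 still passed, at 0.82 in Promoter and 0.72 in U1U2 cells.

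COL3A1, which co-assembles with type I in soft tissues (chr2:188974320-189012746), had 4077, 3664 and 3903 CPM in Promoter MPA, against 3190.4, 4122 and 2567 CPM in Promoter vehicle. Its fold changes did not pass, at 0.24 ± 0.16 in Promoter, 0.27 ± 0.16 in U1U2 and 0.32 ± 0.16 in NT cells (adjusted p = 0.367, 0.325 and 0.307). Without the low-count filter COL3A1 passed in NT cells (0.34). COL3A1 and COL5A2 are neighbours on chromosome 2, facing each other with 19150 bp between their annotated ends, and COL5A2 was called in all 3 lines. The remaining fibrillar chains were rare, and edgeR and DESeq2 called none of them. With GC and length offsets COL5A3 passed in Promoter (0.29, adjusted p = 0.028), U1U2 (0.28, 0.0338) and NT cells (0.35, 0.023), and without the low-count filter in U1U2 cells (0.50). COL5A3, the third type V chain, had 9.30 to 24.3 CPM over all libraries, with 0.32 ± 0.24, 0.52 ± 0.23 and 0.50 ± 0.24 in Promoter, U1U2 and NT cells. COL27A1, a chain of cartilage fibrils, had 8.16 to 16.6 CPM, with 0.21 ± 0.23, 0.14 ± 0.23 and -0.25 ± 0.23. COL24A1, a fibrillar chain of developing bone and cornea in mouse, had 2.00 to 4.05 CPM, with -0.06 ± 0.21, -0.34 ± 0.21 and -0.46 ± 0.21.

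Of the 6 basement membrane chains of type IV, 4 were tested and COL4A1 alone passed, in Promoter and U1U2 cells. COL4A1 and COL4A2 build the common type IV trimer of most basement membranes and are transcribed away from each other on chromosome 13, at chr13:110148963-110307233 and chr13:110305812-110513209. COL4A1 had 2240.3, 1949 and 2059 CPM in Promoter MPA, against 1539, 1892 and 1429 CPM in Promoter vehicle. In U1U2 MPA the values were 2040.4, 2084 and 2173 CPM, against 1488, 1386 and 1483 CPM in U1U2 vehicle. In NT MPA they were 1732, 1789 and 1836 CPM, against 1694, 1432 and 1389.6 CPM in NT vehicle. No line showed overlap between MPA and vehicle libraries, although Promoter vehicle 2 and NT vehicle 1 stood well above the other vehicle libraries of their lines. COL4A1 rose by 0.36 ± 0.10 (adjusted p = 0.0236) in Promoter and 0.53 ± 0.10 (0.00188) in U1U2 cells, with 0.25 ± 0.10 (0.228) in NT cells. The call in Promoter cells was lost without Promoter vehicle 1 or 3 or Promoter MPA 1 or 3 (0.28 to 0.38), and with GC and length offsets (0.31).

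COL4A2 did not pass in any line, except without the low-count filter in U1U2 cells (0.34), and its libraries spread more widely. Its values were 795, 565 and 620.0 CPM in Promoter MPA, against 572, 531 and 547 CPM in Promoter vehicle. They were 526, 627 and 827 CPM in U1U2 MPA, against 459, 580.2 and 518 CPM in U1U2 vehicle, and MPA and vehicle libraries overlapped in each line. The log2 fold changes of COL4A2 were 0.26 ± 0.17 (adjusted p = 0.358), 0.35 ± 0.17 (0.235) and 0.23 ± 0.17 (0.54) in Promoter, U1U2 and NT cells. The per-length ratio of COL4A1 to COL4A2 averaged 4.18 ± 0.44 in Promoter MPA and 3.87 ± 0.69 in Promoter vehicle, 4.29 ± 0.82 in U1U2 MPA and 3.71 ± 0.56 in U1U2 vehicle, and 3.98 ± 0.40 in NT MPA and 3.98 ± 0.42 in NT vehicle (SD, n = 3 each). The ratios of MPA and vehicle libraries overlapped in each line. The ends of both genes overlap in the annotation, and whether the counts used strand was not given in the sources used here, so reads from the overlap could be counted for either.

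Both type IV genes start within one short stretch, and their windows are shown because a chain that passed and a chain that did not share it. The RefSeq starts lie 127 bp apart and the windows overlap by 226 bases, COL4A1 at chr13:110307108-110307407 on the minus strand and COL4A2 at chr13:110307034-110307333 on the plus strand. Capitals mark CCAAT on either strand (ATTGG in the COL4A1 line).
COL4A1: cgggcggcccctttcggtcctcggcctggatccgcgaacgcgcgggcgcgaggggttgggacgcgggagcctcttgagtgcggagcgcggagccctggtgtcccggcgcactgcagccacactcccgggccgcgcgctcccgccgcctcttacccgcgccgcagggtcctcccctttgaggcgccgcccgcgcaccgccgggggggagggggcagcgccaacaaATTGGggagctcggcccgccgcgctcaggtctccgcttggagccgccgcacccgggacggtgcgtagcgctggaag
COL4A2: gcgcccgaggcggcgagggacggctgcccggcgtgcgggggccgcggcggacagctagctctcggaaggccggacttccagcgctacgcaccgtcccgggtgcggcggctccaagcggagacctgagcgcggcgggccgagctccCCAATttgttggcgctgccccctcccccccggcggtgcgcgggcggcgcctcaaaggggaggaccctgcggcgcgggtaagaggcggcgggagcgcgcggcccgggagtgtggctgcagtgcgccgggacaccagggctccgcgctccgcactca
The single CCAAT match is the same stretch of bases in both windows, read from opposite strands. Neither window held AGAACA or TATAAA. The other chains of the family, found with COL4A3 in the kidney's filtration barrier, were barely present: COL4A4 had 0 to 17 counts per library and COL4A5 1 to 15. COL4A4 gave 0.95 ± 0.52, 1.21 ± 0.51 and -0.53 ± 0.72 on the log2 scale in Promoter, U1U2 and NT cells, and COL4A5 0.14 ± 0.48, 1.18 ± 0.51 and 0.67 ± 0.63, none of them called.

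FACIT chains did not move in a single direction. Of 10 genes 3 were tested, and in Promoter cells COL12A1 rose while COL14A1 and COL16A1 fell. COL12A1, which bridges type I fibrils (chr6:75084326-75206051), had 1596, 1696 and 1615 CPM in Promoter MPA, against 1255, 1283 and 977 CPM in Promoter vehicle. U1U2 MPA libraries had 1958, 1825 and 1690.3 CPM, against 1558, 1546 and 1437 CPM in U1U2 vehicle. NT MPA libraries had 1347, 1247 and 1491 CPM, against 1057, 1115 and 1046 CPM in NT vehicle. MPA libraries lay above vehicle libraries in every line, and by edgeR's test COL12A1 passed in Promoter cells, at 0.48 ± 0.10 (adjusted p = 0.0028), beside 0.27 ± 0.10 (0.105) in U1U2 and 0.34 ± 0.10 (0.0573) in NT cells. COL12A1 passed in NT cells with DESeq2 (0.34, adjusted p = 0.0348), with GC and length offsets and without the low-count filter, and in U1U2 cells with GC and length offsets (0.33, adjusted p = 0.0232). The difference between lines in this response was itself not called.

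COL14A1, the closest relative of COL12A1 and also bound to type I fibrils (chr8:120059780-120372036), went the other way. It had 130.4, 106 and 116 CPM in Promoter MPA, against 164, 157 and 158 CPM in Promoter vehicle. In U1U2 MPA the level was 159, 111 and 133 CPM, against 206, 249 and 220.1 CPM in U1U2 vehicle. In NT MPA it was 279.5, 232 and 301 CPM, against 292, 299.8 and 311 CPM in NT vehicle. The groups separated in Promoter and U1U2 cells and overlapped in NT cells, and every Promoter and U1U2 library with or without MPA lay below every NT vehicle library. COL14A1 fell by 0.44 ± 0.12 on the log2 scale in Promoter cells (adjusted p = 0.017) and by 0.75 ± 0.12 in U1U2 cells (0.000277), with -0.15 ± 0.12 (0.569) in NT cells. The Promoter call was lost without Promoter vehicle 1 or Promoter MPA 2 or 3 (-0.42 to -0.38).

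COL16A1, a FACIT chain of smooth muscle and fibroblasts (chr1:31652247-31704319), had 6.52, 4.53 and 4.65 CPM in Promoter MPA, against 10.8, 6.97 and 12.7 CPM in Promoter vehicle. It changed by -0.97 ± 0.27 (adjusted p = 0.0212) in Promoter, -0.49 ± 0.27 (0.295) in U1U2 and -0.39 ± 0.28 (0.526) in NT cells. With GC and length offsets it also passed in U1U2 (-0.72) and NT cells (-0.51). MPA and vehicle libraries of COL16A1 were apart in Promoter cells only. The call was lost without Promoter vehicle 1 or 3 or Promoter MPA 2 or 3 (-0.93 to -0.77). An antisense gene that overlaps COL16A1 held 7.67% as many counts, and reads of this pair could have been counted for either gene.

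Beaded-filament chains of type VI, which form the fine microfibrils around cells, gave no call in any line by edgeR's test. COL6A3, the long chain (chr2:237324003-237414375), had 2347, 2143 and 2159 CPM in Promoter MPA, against 2274, 2282 and 1693 CPM in Promoter vehicle. Its fold changes were 0.09 ± 0.14 in Promoter, -0.21 ± 0.14 in U1U2 and -0.26 ± 0.14 in NT cells. COL6A1 gave -0.04 ± 0.19, 0.37 ± 0.19 and 0.25 ± 0.19, and COL6A2 gave 0.22 ± 0.34, 0.75 ± 0.34 and 0.28 ± 0.34, in the same order of lines. Of these 9 values, 1 had an unadjusted p under 0.05 by edgeR (COL6A2 in U1U2 cells), and DESeq2 called 0. In U1U2 cells COL6A2 passed with GC and length offsets (0.43) and without the low-count filter (0.73), as did COL6A1 without the filter (0.36). COL6A2 libraries ran from 58.8 to 159 CPM within U1U2 MPA alone. The per-length ratio of COL6A3 to COL6A1 averaged 2.68 ± 0.39 in Promoter MPA and 2.39 ± 0.24 in Promoter vehicle, 1.96 ± 0.27 in U1U2 MPA and 2.93 ± 0.34 in U1U2 vehicle, and 1.65 ± 0.10 in NT MPA and 2.38 ± 0.28 in NT vehicle (SD, n = 3 each). MPA libraries lay below vehicle libraries in U1U2 and NT cells, and overlapped them in Promoter cells. The longest transcript of COL6A1 is richer in GC, at 63.5% against 53.2% for COL6A3. The part of GC content in this ratio was not tested. COL6A1 and COL6A2 lie in a row on chromosome 21, 93047 bp apart.

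The short-chain network collagen of type VIII, known from the matrix beneath vascular endothelium and the cornea, was split between its genes. COL8A1 (chr3:99638475-99799226) had 856, 888 and 894 CPM in Promoter MPA, against 474, 563 and 518 CPM in Promoter vehicle. U1U2 MPA libraries had 821, 844 and 777 CPM, against 514, 403 and 454 CPM in U1U2 vehicle. NT MPA libraries had 626, 603 and 574 CPM, against 483, 491 and 495 CPM in NT vehicle. All MPA libraries exceeded all vehicle libraries of the study, with the NT MPA libraries the lowest of them. COL8A1 rose by 0.76 ± 0.09 (adjusted p = 5.62e-06) in Promoter and 0.83 ± 0.09 (2.59e-06) in U1U2 cells, with 0.30 ± 0.09 (0.0571) in NT cells. Both calls held under every alternative run, and DESeq2 also called COL8A1 in NT cells (0.29, adjusted p = 0.0312).

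COL8A2, the second type VIII chain (chr1:36095236-36125220), was far rarer and fell. It had 4.44, 4.79 and 4.20 CPM in Promoter MPA, against 7.67, 7.15 and 6.71 CPM in Promoter vehicle. The change was -0.68 ± 0.19 (adjusted p = 0.0229) in Promoter, -0.49 ± 0.19 (0.119) in U1U2 and -0.05 ± 0.20 (0.928) in NT cells. Promoter MPA libraries were tight and below every Promoter vehicle library, whereas the groups overlapped in the other lines. The call was lost without Promoter vehicle 1 or 2 or any 1 Promoter MPA library (-0.73 to -0.62), and with GC and length offsets (-0.65).

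COL7A1, the chain of the anchoring fibrils that tie epithelial basement membranes to the tissue below (chr3:48564073-48595267), had the largest rise among members above 1 CPM. It had 28.6, 16.9 and 19.2 CPM in Promoter MPA, against 10.2, 6.72 and 8.99 CPM in Promoter vehicle. With MPA, U1U2 libraries reached 10.4, 14.8 and 23.0 CPM, against 4.93, 6.62 and 6.71 CPM in U1U2 vehicle. With MPA, NT libraries reached 7.84, 10.1 and 8.39 CPM, against 6.95, 4.86 and 4.00 CPM in NT vehicle. MPA libraries were higher in every line without overlap, and spread most in U1U2 MPA, where library 3 was above library 1 by more than the whole vehicle range. The log2 fold changes of COL7A1 were 1.31 ± 0.26 (adjusted p = 0.00183) in Promoter, 1.40 ± 0.27 (0.00158) in U1U2 and 0.76 ± 0.29 (0.164) in NT cells. In NT cells COL7A1 passed with GC and length offsets (0.63) and without the low-count filter (0.78). Its promoter window is shown because it was the chain with this rise and one of 7 member genes with a TATAAA match. It lies at chr3:48595280-48595579 on the minus strand (RefSeq, GRCh38.p14), and the capitals mark that match, read on the other strand.
COL7A1: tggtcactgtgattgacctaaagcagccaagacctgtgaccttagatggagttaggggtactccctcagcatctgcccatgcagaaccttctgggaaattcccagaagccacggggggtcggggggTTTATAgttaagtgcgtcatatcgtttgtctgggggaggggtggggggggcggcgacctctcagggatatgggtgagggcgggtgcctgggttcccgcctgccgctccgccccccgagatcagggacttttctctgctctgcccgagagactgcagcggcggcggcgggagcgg
The COL7A1 window held no AGAACA and no CCAAT.

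COL13A1, a transmembrane collagen of cell contacts and the neuromuscular junction (chr10:69801867-69964275), had 5.27, 3.84 and 4.52 CPM in Promoter MPA, against 7.01, 6.59 and 8.85 CPM in Promoter vehicle. NT MPA libraries had 2.60, 4.08 and 2.75 CPM, against 5.02, 5.91 and 4.00 CPM in NT vehicle. The change was -0.73 ± 0.19 (adjusted p = 0.0131) in Promoter, -0.21 ± 0.19 (0.554) in U1U2 and -0.65 ± 0.21 (0.0811) in NT cells. Groups were apart in Promoter cells and overlapped in NT and U1U2 cells. Without Promoter vehicle 3 or Promoter MPA 2 the call was lost (-0.62 to -0.58). In NT cells COL13A1 passed with DESeq2 (-0.66, adjusted p = 0.0362) and with GC and length offsets (-0.81).

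COL18A1, a multiplexin of basement membranes and the source of the fragment endostatin (chr21:45405137-45513720), was called in U1U2 cells on few counts. It had 0.234, 0.634 and 1.36 CPM in U1U2 MPA, against 0.138, 0.219 and 0.128 CPM in U1U2 vehicle, a total of 59 counts against 14. The log2 fold change was 2.22 ± 0.59 (adjusted p = 0.0178), beside 0.72 ± 0.47 in Promoter and 0.43 ± 0.70 in NT cells, which were not called. Without U1U2 MPA 3 it was 1.38 (adjusted p = 0.193) and without U1U2 vehicle 3 it was 2.04 (adjusted p = 0.0819), so the call rests on those libraries. SLC19A1, on the opposite strand of the same locus, held up to 69 counts per library, more than COL18A1 itself, and its reads could not be told apart with certainty.

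**Figure D4:**
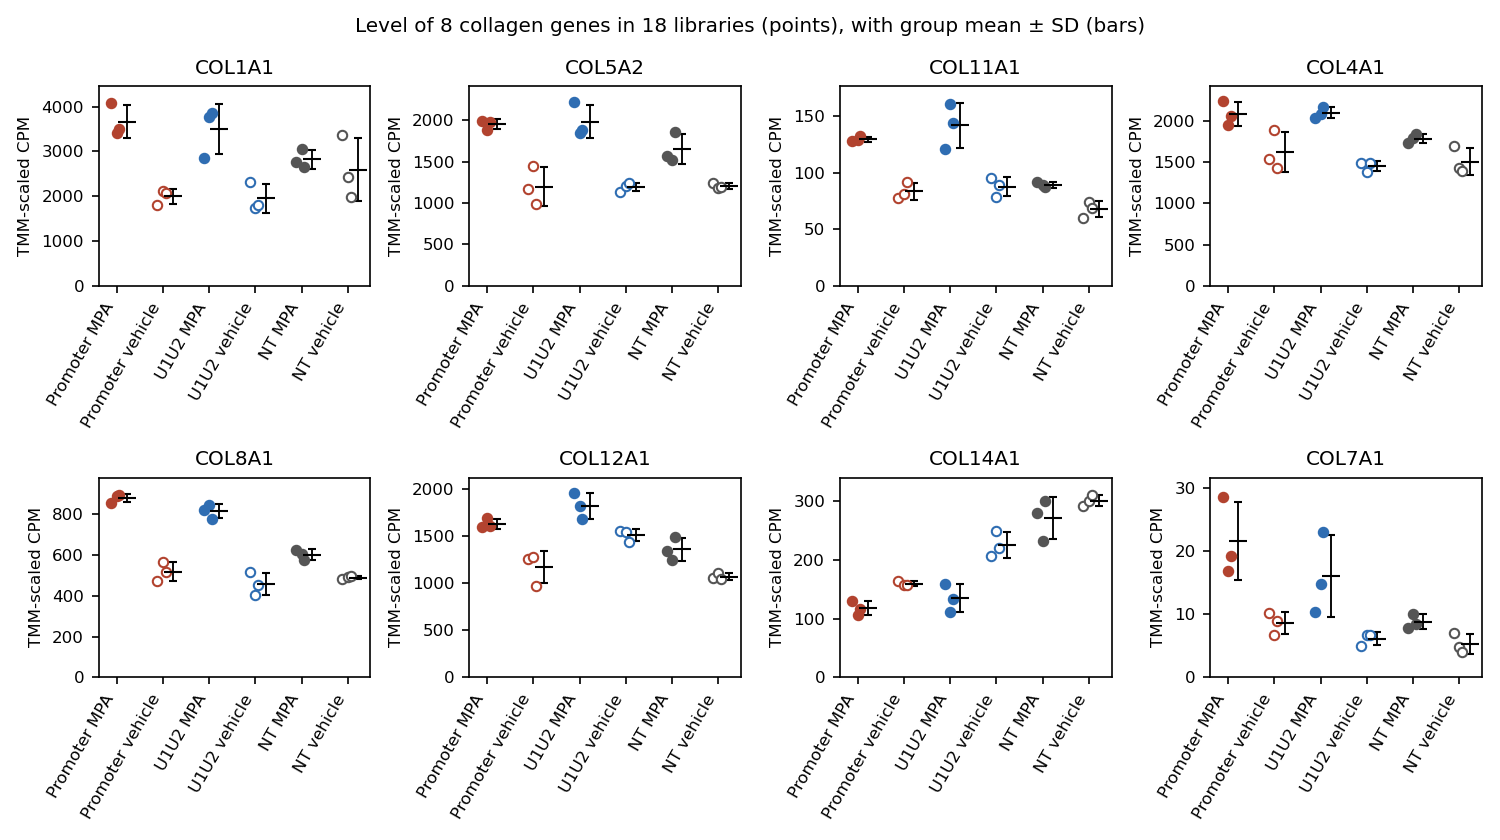
TMM-scaled CPM of 8 collagen genes in each of the 18 libraries (points), with group mean ± SD (bars, n = 3), on axes that start at 0. COL1A1, COL5A2, COL11A1, COL4A1, COL8A1 and COL7A1 are higher in Promoter MPA and U1U2 MPA than in their vehicle groups, and COL14A1 is lower in both engineered lines than in NT vehicle.

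Between lines in vehicle, few collagen genes were called. Promoter vehicle against NT vehicle gave 1 called member of 24, where 6.75% of all genes were called (3.07% higher and 3.68% lower). It was COL14A1, whose values are given above, at -0.91 ± 0.12 (adjusted p = 0.000246). U1U2 vehicle against NT vehicle also gave 1 call, beside 1.14% of all genes (0.431% higher and 0.713% lower): COL12A1 was higher, at 0.50 ± 0.10 (adjusted p = 0.0289). That call was lost without any 1 NT vehicle library or U1U2 vehicle 2 or 3 (0.48 to 0.53). COL14A1 had -0.42 ± 0.12 in U1U2 vehicle, which did not pass (0.0987) but did with DESeq2 (0.0389), with GC and length offsets and without the low-count filter. DESeq2 also called COL13A1 higher in Promoter vehicle (0.58) and COL11A1 higher in U1U2 vehicle (0.36), each against NT vehicle. In Promoter vehicle against NT vehicle, edgeR called COL7A1 higher with GC and length offsets (0.62, adjusted p = 0.00591) and without the low-count filter (0.79, 0.00121). Without the filter COL1A1 was called lower in Promoter (-0.34) and U1U2 vehicle (-0.37), and COL11A1 higher in U1U2 vehicle (0.41), each against NT vehicle. Promoter vehicle against U1U2 vehicle gave 0 calls with edgeR, where 0.784% of all genes were called, 4 members had an unadjusted p under 0.05, and DESeq2 called COL12A1 and COL14A1. COL14A1 there was -0.50 ± 0.12 (adjusted p = 0.0704), and its libraries in Promoter vehicle all lay below those in U1U2 vehicle, which in turn lay below those in NT vehicle.

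Under MPA edgeR called more chains between each engineered line and NT cells than in vehicle. Some of these chains differed in vehicle too. U1U2 over NT vehicle was 0.36 for COL11A1, 0.50 for COL12A1 and -0.42 for COL14A1, but -0.10 for COL8A1. Promoter over NT vehicle was 0.30 for COL11A1, 0.74 for COL7A1 and -0.91 for COL14A1, but 0.08 for COL8A1. Promoter MPA against NT MPA gave 4 calls of 24, where 4.15% of all genes were called (1.77% higher and 2.37% lower). COL11A1 was higher by 0.54 ± 0.10 (adjusted p = 0.00386), COL8A1 by 0.55 ± 0.09 (0.000724) and COL7A1 by 1.29 ± 0.27 (0.00657), and COL14A1 was lower, at -1.20 ± 0.12 (4.45e-06). U1U2 MPA against NT MPA also gave 4, where 1.72% of all genes were called (0.784% higher and 0.938% lower). COL11A1 was higher by 0.67 ± 0.10 (adjusted p = 0.00112), COL8A1 by 0.44 ± 0.09 (0.0116) and COL12A1 by 0.42 ± 0.10 (0.0422), and COL14A1 was lower, at -1.01 ± 0.12 (8.46e-05). COL7A1 was at 0.87 ± 0.27 in U1U2 MPA over NT MPA and did not pass with edgeR (0.147), but did with DESeq2 (0.0402), with GC and length offsets (0.70, adjusted p = 0.00206) and without the low-count filter (0.89, adjusted p = 6.13e-05). These comparisons share the NT MPA libraries, so calls in both are not independent. The COL12A1 call was lost without any 1 U1U2 MPA library or NT MPA 1 or 2 (0.36 to 0.48), with RLE factors (adjusted p = 0.0649) and with a replicate block (0.0824), and that of COL8A1 in U1U2 MPA without NT MPA 2 or 3 or U1U2 MPA 2 (0.41 to 0.44). Promoter MPA against U1U2 MPA gave 0 calls with edgeR and DESeq2 and 0 members with an unadjusted p under 0.05, where 0.328% of all genes were called. The largest differences there were -0.46 ± 0.28 for COL16A1 and 0.42 ± 0.26 for COL7A1.

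Whether the response to MPA itself differed between lines was tested as a difference of fold changes. No collagen gene passed with edgeR in any of the 3 tests, where 1.56% of all genes passed for Promoter minus NT, 0.219% for U1U2 minus NT and 0.0129% for Promoter minus U1U2. Split by direction, these were 0.803% higher and 0.752% lower, 0.148% and 0.0707%, and 0.00643% and 0.00643%. For Promoter minus NT, 3 members had an unadjusted p under 0.05: COL1A1 at 0.76 ± 0.24 (adjusted p = 0.147), COL8A1 at 0.47 ± 0.12 (0.0763) and COL8A2 at -0.62 ± 0.28 (0.308). DESeq2 called COL1A1 and COL8A1 there, as did the fit without the low-count filter for COL1A1 and that with GC and length offsets for COL8A1. For U1U2 minus NT there were also 3: COL1A1 at 0.72 ± 0.24 (adjusted p = 0.385), COL8A1 at 0.53 ± 0.12 (0.102) and COL14A1 at -0.59 ± 0.17 (0.248). DESeq2 and the fit with GC and length offsets called COL8A1 there, the fit without the low-count filter called COL1A1 and COL14A1, and edgeR called 1 member when U1U2 vehicle 1 was left out. For Promoter minus U1U2 no member had an unadjusted p under 0.05 and DESeq2 called 0. The larger number of collagen genes called in Promoter and U1U2 than in NT cells is therefore a difference in counts of calls, and edgeR's test of the difference in the responses passed for no member. The first of these tests and the second share the NT libraries.

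The enzymes, chaperones and receptors that work on collagen were followed on 6 lists of 66 genes, of which 56 were tested. With MPA 15 of 56 were called in Promoter cells, 9 higher and 6 lower, 13 in U1U2 cells, 8 higher and 5 lower, and 9 in NT cells, 5 higher and 4 lower. These are 26.8%, 23.2% and 16.1% of the lists, beside 15%, 11.7% and 5.93% of all tested genes. The NT count was 5 without NT MPA 2. With GC and length offsets the counts were 25 in Promoter and 21 in U1U2 cells.

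Collagen-degrading enzymes fell: of 5 tested, 4 were called lower in Promoter cells, 4 in U1U2 cells and 2 in NT cells. Of all tested genes, 8.4%, 6.22% and 3.48% were called lower in these lines. MMP1, the interstitial collagenase, averaged 4.49 ± 0.426 CPM in Promoter MPA and 48.5 ± 4.93 CPM in Promoter vehicle (SD, n = 3 each), with log2 fold changes of -3.44 ± 0.11, -2.57 ± 0.11 and -2.54 ± 0.11 in Promoter, U1U2 and NT cells (adjusted p = 8.01e-13, 2.94e-11 and 9.4e-11). CTSK, the collagen-cleaving cathepsin K, changed by -1.40 ± 0.17, -1.46 ± 0.17 and -0.70 ± 0.16 (7.44e-06, 5.62e-06 and 0.0126). MMP2, a gelatinase, and FAP, a surface protease of stromal cells, were called in Promoter cells (-0.80 ± 0.16 and -0.74 ± 0.13) and U1U2 cells (-0.70 ± 0.16 and -0.46 ± 0.13), and were at -0.44 ± 0.16 and -0.25 ± 0.13 in NT cells, not called. The NT call of CTSK was lost without NT vehicle 1 or NT MPA 1 or 2 (-0.64 to -0.56), and the U1U2 call of FAP without U1U2 vehicle 2 or 3 or U1U2 MPA 2 or 3 (-0.44 to -0.39).

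Of the proteases that remove propeptides, ADAMTS2, which trims the amino end of types I and III, rose by 2.41 ± 0.12, 1.81 ± 0.11 and 1.08 ± 0.11 in Promoter, U1U2 and NT cells (adjusted p = 8.2e-11, 3.17e-09 and 4.95e-06). ADAMTS2 averaged 286 ± 11.7 CPM in Promoter MPA and 53.9 ± 6.55 CPM in Promoter vehicle. BMP1, which trims the carboxyl end, rose by 0.68 ± 0.22 (0.0498) in Promoter and 0.90 ± 0.22 (0.0119) in U1U2 cells, with 0.38 ± 0.23 (0.438) in NT cells. The BMP1 call in Promoter cells was lost without any 1 Promoter library (0.51 to 0.77), and that in U1U2 cells without U1U2 vehicle 3 or U1U2 MPA 3 (0.57 to 0.85). Among collagen receptors, ITGA10 and ITGA1, integrin subunits that bind collagen, were called higher in every line. ITGA10 rose by 3.49 ± 0.26, 2.47 ± 0.25 and 1.58 ± 0.32 (adjusted p = 1.6e-08, 1.2e-06 and 0.00405), with means of 5.92 ± 0.314 CPM in Promoter MPA and 0.572 ± 0.279 CPM in Promoter vehicle. ITGA1 rose by 1.15 ± 0.10, 1.01 ± 0.10 and 0.76 ± 0.10 (2.32e-07, 1.72e-06 and 8.68e-05). Without NT vehicle 2 the ITGA10 call in NT cells was lost (1.38, adjusted p = 0.0502). ITGA2, the collagen-binding subunit of platelets and epithelium, was called lower in NT cells, at -0.30 ± 0.08 (adjusted p = 0.0386), and lost the call without NT vehicle 2 or 3 or NT MPA 2 or 3 (-0.31 to -0.24). ITGA2 and the other genes below a log2 change of 0.5 are named to complete small counts and were chosen after their values were seen.

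Of 15 genes for modification of prolines and lysines, 2 rose in each line (13.3%), a share near that of all genes in Promoter and U1U2 cells (15% and 11.7%) and above it in NT cells (5.93%). P4HA3, a prolyl 4-hydroxylase subunit, rose by 0.84 ± 0.17, 0.81 ± 0.17 and 0.75 ± 0.18 in Promoter, U1U2 and NT cells (adjusted p = 0.00205, 0.00365 and 0.0126). The P4HA3 call in NT cells was lost without NT vehicle 2 or 3 or NT MPA 2 (0.61 to 0.72). The other gene called was PPIB, a prolyl isomerase, in Promoter cells (0.44 ± 0.14, adjusted p = 0.0447) and PLOD2, a lysyl hydroxylase, in U1U2 cells (0.49 ± 0.11, 0.00801). The PPIB call was lost without Promoter vehicle 1 or 2 or any 1 Promoter MPA library (0.36 to 0.45), and that of PLOD2 without U1U2 vehicle 2 or U1U2 MPA 2 (0.38 to 0.41). P3H2, a prolyl 3-hydroxylase, rose in NT cells (1.01 ± 0.15, 0.000163), and was at 0.15 ± 0.14 in Promoter and 0.31 ± 0.14 in U1U2 cells, not called. Of 15 genes for folding and secretion, 3 rose and 1 fell in Promoter cells, 1 rose in U1U2 cells (6.67%, below the 11.7% of all genes), and in NT cells edgeR and DESeq2 called 0, with 2 genes at an unadjusted p under 0.05. FKBP14, a prolyl isomerase of the endoplasmic reticulum, rose by 0.34 ± 0.10 in Promoter cells (adjusted p = 0.0188) and 0.40 ± 0.10 in U1U2 cells (0.00798). FKBP9, of the same family, rose by 0.28 ± 0.09 (0.0349) and MIA3, which loads collagen into transport carriers, by 0.33 ± 0.10 (0.0341) in Promoter cells. The FKBP14 calls were lost without Promoter vehicle 1 or any 1 Promoter MPA library (0.28 to 0.36) and without U1U2 vehicle 2 or U1U2 MPA 2 (0.34 to 0.36). Those of FKBP9 and MIA3 were lost too, FKBP9 without any 1 Promoter library (0.25 to 0.32) and MIA3 without Promoter vehicle 1 or 2 or any 1 Promoter MPA library (0.30 to 0.35). TMEM38B, a channel of the endoplasmic reticulum needed for collagen assembly in bone, fell by 0.55 ± 0.10 in Promoter cells (adjusted p = 0.000776). LOXL4, a lysyl oxidase of the crosslinking list of 5, was called lower in all 3 lines, at -0.62 ± 0.10, -0.43 ± 0.10 and -0.38 ± 0.10 (0.000336, 0.00843 and 0.0378). The LOXL4 call in NT cells was lost without NT vehicle 1 or any 1 NT MPA library (-0.43 to -0.25). LOX, another lysyl oxidase, was called higher in U1U2 cells (0.42 ± 0.13, adjusted p = 0.0468) and lost the call without U1U2 vehicle 2 or 3 or U1U2 MPA 1 or 2 (0.31 to 0.42).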

How the data were processed

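Poly(A) RNA of 18 THESC libraries was sequenced with a stranded kit, per the labels' protocols. The authors deposited whole-number read counts per gene. Their log2 CPM table was not used. The submitters' processing notes list STAR 2.6.0c, the build hg38, edgeR 4.2.2 and R 4.4.1, without saying what each did. The sources used here do not name the read counter, the strand setting or the gene models. Reads of overlapping genes may thus have been counted for either gene.

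The tests were run with edgeR 4.0.16 and R 4.3.3. Genes kept by filterByExpr at a minimum count of 10 (15558 genes) entered 1 quasi-likelihood model with a term per group over all 18 libraries and TMM factors, which gave 12 contrasts of 3 libraries against 3 or differences of these. P-values were adjusted over all tested genes with the Benjamini-Hochberg method and called under 0.05. Errors of log2 fold changes are standard errors. Levels are TMM-scaled CPM, divided by the GENCODE 29 exon length where genes were compared. Depth was 11.9 to 33.4 M counts, and a gene at 0 counts in a single library could have an expected count of up to 3 in it, for counting error only. The procedure was tested on simulated data. Alternatives were other normalizations, no low-count filter, a replicate block, fits of only the groups compared, GC and length offsets, DESeq2 1.42.0 and leaving out each library.

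The members, classes and lists were chosen with earlier results of these data known. Every member could be named, with values given for those called or among the 10 most abundant. Genes of the 6 lists were named if called with an absolute log2 fold change of at least 0.5 with MPA, at most 4 per list. Promoter windows came from RefSeq (GRCh38.p14). The labels number replicates 1 to 3, and the numbers were not treated as pairs.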

Additional observations from a re-analysis of the deposited data

Results flagged for a closer look

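The response to MPA of 4 genes that act on collagen differed between Promoter and NT cells by the test of the difference itself (edgeR, adjusted over all genes). ADAMTS2, the procollagen protease, rose more in Promoter cells, with a difference of log2 fold changes of 1.33 ± 0.16 (adjusted p = 0.000191), the log2 fold changes being 2.41 ± 0.12 in Promoter and 1.08 ± 0.11 in NT cells. ITGA10, a collagen-binding integrin subunit, also rose more, by 1.91 ± 0.44 (adjusted p = 0.0349). MMP1, the interstitial collagenase, fell further in Promoter cells, with a difference of -0.89 ± 0.15 (adjusted p = 0.00498). P3H2, a prolyl 3-hydroxylase, had a difference of -0.86 ± 0.20 (adjusted p = 0.0415), the log2 fold changes being 0.15 ± 0.14 in Promoter cells, not called, and 1.01 ± 0.15 in NT cells. The ITGA10 difference lost its call without any 1 NT vehicle or Promoter MPA library, NT MPA 1 or 2, or Promoter vehicle 1 or 3 (1.62 to 2.12). That of P3H2 lost it without any 1 of these libraries except NT MPA 1, and also without NT MPA 3 or Promoter vehicle 2 (-0.91 to -0.76). The same difference for U1U2 minus NT was 0.73 ± 0.16 for ADAMTS2, 0.89 ± 0.43 for ITGA10, -0.02 ± 0.15 for MMP1 and -0.70 ± 0.20 for P3H2. EdgeR called none of these, while DESeq2 and the fit without the low-count filter called that of ADAMTS2 (adjusted p = 0.00369 and 0.00305). No collagen chain gene was among these results.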

How the results depend on the processing

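Of 34 called results for single collagen genes, 22 kept their call and direction under every alternative run, 12 lost the call under at least 1, and 0 changed direction. The counts of called members moved as follows, with the cause not tested. MPA in NT cells (3) gave 6 without the low-count filter, 0 with only the groups compared, 7 with GC and length offsets, 6 with DESeq2 and 0 to 2 with 1 library left out (1 without NT vehicle 2, NT vehicle 3 or NT MPA 1, and 0 without NT MPA 3). MPA in U1U2 cells (9) gave 14 without the filter and 8 to 10 with 1 library left out, and MPA in Promoter cells (12) gave 8 to 12 with 1 left out. With offsets the calls in U1U2 cells were kept, and COL5A3, COL6A2, COL12A1 and COL16A1 were added to them. U1U2 vehicle against NT vehicle (1) gave 4 without the filter, 0 with only the groups compared, 2 with offsets, 3 with DESeq2 and 0 to 1 with 1 left out. Promoter vehicle against NT vehicle (1) gave 3 without the filter, 2 with offsets and 2 with DESeq2. Promoter vehicle against U1U2 vehicle (0) gave 2, 1 and 2 under the same 3 settings. U1U2 MPA against NT MPA (4), where COL7A1 was added with DESeq2, with offsets and without the filter, gave 2 with only the groups compared and 2 to 4 with 1 left out (2 without NT MPA 2 or U1U2 MPA 2). Promoter MPA against NT MPA (4) gave 7 without the filter, and with offsets COL16A1 and COL18A1 were added. The MPA response of U1U2 minus NT (0) gave 2 without the filter, 1 with offsets, 1 with DESeq2 and 0 to 1 with 1 left out (1 without U1U2 vehicle 1). For Promoter minus NT (0) these settings gave 1, 1 and 2. With GC and length offsets the collagen-related lists had 21 called genes instead of 13 in U1U2 and 25 instead of 15 in Promoter cells with MPA, and 5 to 8 instead of 9 in NT cells with 1 library left out (5 without NT MPA 2). Among single list genes with MPA, the calls of FKBP9 and MIA3 in Promoter cells and of LOXL4 and ITGA2 in NT cells were lost without the filter. Those of FKBP9 in Promoter, FAP and LOX in U1U2 and P4HA3, LOXL4 and ITGA2 in NT cells were lost with only the groups compared. LOX in U1U2 cells also lost its call with RLE or upper-quartile factors and BMP1 in Promoter cells with the last of these.

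The replicate numbers were checked for pairing. Of 45 same-numbered pairs, 13 correlated above 0.1, with a median of -0.05 against 0.05 for differently numbered ones. Only 4 of 18 libraries correlated best with their own number. The check thus gave no sign of pairing by number. It cannot exclude pairing, since same-numbered correlations ran from -0.521 to 0.5 and other differences between libraries could hide it. With the number as a replicate block, MPA in NT cells gave 1 called member instead of 3 and U1U2 vehicle against NT vehicle gave 0 instead of 1, and COL12A1 lost its call in U1U2 MPA against NT MPA (0.42, adjusted p = 0.0824). Among the list genes with MPA it ended the calls of BMP1, FKBP9, MIA3 and PPIB in Promoter, FAP and LOX in U1U2 and ITGA2 and LOXL4 in NT cells, and that of ITGA10 for Promoter minus NT. The 20 members left untested had at most 15 counts per library and were left out by the low-count filter. Changes in them were therefore not tested in the main fit.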
